A study of Mus musculus with 4 samples.

Results

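Natural killer (NK) and innate lymphoid cells of the mouse liver were described here across 4 single-cell libraries of sorted liver immune cells. A barcode was taken as such a cell when it held at least 1 UMI (unique molecular identifier, 1 captured RNA molecule) of at least 3 of 8 genes, Gzma, Nkg7, Txk, Klre1, Klra8, Klra4, Klra7 and Xcl1, and when fewer than 1% of its UMIs came from Lyz2, the lysozyme gene of monocytes and macrophages. Of 9609 retained barcodes, 230 met the rule. The values of these 9 genes chose the cells, so their levels below are a description and carry no test.

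The animals were male wild-type C57BL/6 mice, 8 weeks old when bought and then fed for 6 weeks with a normal control diet (NCD) or with a diet lacking methionine and choline (MCD), which leads to fat accumulation in the liver. Each diet had 2 libraries, made with the 10x Genomics 3′ version 3 chemistry. The sort kept 7AAD-, CD45+, Ly6G- cells with intermediate CD11b and was aimed at monocytes and macrophages; the series text calls them F4/80 low and the sample labels F4/80 hi. The labels do not say whether a library was 1 mouse or a pool, nor whether the libraries were prepared together, so the p-values measure the spread between these libraries, and diet and preparation cannot be told apart.

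NK cells kill infected or transformed cells with granzymes and perforin and release interferon gamma, under the balance of activating receptors (NKG2D, NKp46, NK1.1) and of inhibitory receptors that read MHC class I. Innate lymphoid cells are the related lymphocytes without antigen receptors; group 1 cells (ILC1) share NK receptors and live in the liver tissue, whereas NK cells circulate and can express intermediate CD11b. Both depend on interleukin-15, read through the receptor chain Il2rb, and answer to interleukin-12 and interleukin-18.

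The number of selected cells was 55 of 1735 and 105 of 1786 in NCD replicates 1 and 2, and 39 of 2950 and 31 of 3138 in MCD replicates 1 and 2. They held 202312, 261712, 255985 and 203547 UMIs in the same order. Cells of the MCD libraries were read far more deeply, with a median of 6414 and 5680 UMIs per selected cell against 1665 and 1432 in the NCD libraries. A few large cells carried much of the NCD sums: 8 and 16 cells with over 3 times the median UMIs of the selected cells of their library held 58.0% and 44.8% of the UMIs, against 0 cells in MCD replicate 1 and 2 cells with 22.7% in MCD replicate 2. The largest, in NCD replicate 1, had 41833 UMIs and held 7 of the 8 rule genes beside 6120 CPM of monocyte markers (counts scaled to 1000000 UMIs) and 10064 CPM of dendritic cell markers. Where leaving out these large cells, an alternative chosen after seeing the data, ends the call of a gene named below, this is said beside it. Of 330 named genes tested between diets, only 268 could be tested without the large cells. Mitochondrial UMIs also moved with diet, at a median of 8.34%, 7.72%, 4.06% and 3.83% of a selected cell, and the limit of 10% left out 37.2%, 33.6%, 11.6% and 9.44% of the barcodes. No barcode was shared among the selected cells of different libraries.

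**Figure D1:**
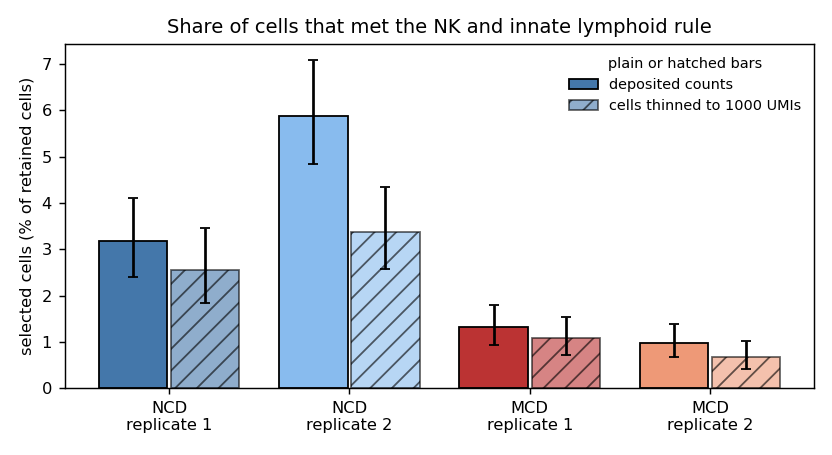
Share of retained cells that met the rule in each library, in percent; plain bars show the deposited counts, hatched bars the cells thinned to 1000 UMIs, and error bars the exact 95% interval of counting error. Both NCD libraries lie above both MCD libraries on either scale (3.17% and 5.88% against 1.32% and 0.988% with the deposited counts).

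The selected share was lower in the MCD libraries. It was 3.17% (exact Clopper-Pearson 95% interval 2.40 to 4.11) and 5.88% (4.83 to 7.07) in NCD replicates 1 and 2, and 1.32% (0.942 to 1.80) and 0.988% (0.672 to 1.40) in MCD replicates 1 and 2. The diets did not overlap, with means of 4.52% ± 1.92 (SD, n = 2) and 1.15% ± 0.236 (SD, n = 2), a 3.92-fold difference. An exact two-sided permutation test over libraries gave p = 0.33, the smallest that 2 against 2 libraries allow, so the difference cannot pass a threshold of 0.05. With every cell thinned to 1000 UMIs before the rule was applied, the shares were 2.56% and 3.37% against 1.08% and 0.668%, in the same order of diets. The share is of cells that passed a myeloid sort gate, so the gate can set it.

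Near the limits of the rule, 10, 23, 2 and 7 selected cells (NCD replicates 1 and 2, then MCD replicates 1 and 2) held exactly 3 of the 8 genes, and 7, 12, 17 and 9 other cells held 2 of them. The median selected cell held 5, 5, 6 and 5. The limit on Lyz2 removed 0, 0, 3 and 1 cells, and the highest Lyz2 share among those kept was 0.568%, 0.971%, 0.253% and 0.788%.

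The label was held against markers that the rule did not use. Ncr1, which encodes the NK receptor NKp46, was at 143, 245, 418 and 506 CPM in the summed selected cells of NCD replicates 1 and 2 and MCD replicates 1 and 2, and at 2.10, 1.02, 0.0936 and 0 CPM in the other cells. Klrb1c, the gene of NK1.1, was at 183, 302, 453 and 560 CPM. Eomes and Tbx21, the transcription factors that define NK cells and ILC1, were present in every library, Eomes at 64.3, 122, 223 and 133 CPM. The 15 NK-defining genes summed to 16133, 20595, 20650 and 18635 CPM in selected cells and to 719, 398, 330 and 484 CPM in other cells. Among genes outside the rule, those with the largest ratio to other cells in their worst library included the chemokine Ccl5, Gzmb, Klrb1c, Klrc2, Ncr1, Klra9, Il2rb and Ifng. As the same cells were chosen for related transcripts, these contrasts describe the cells and are no test.

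**Figure D2:**
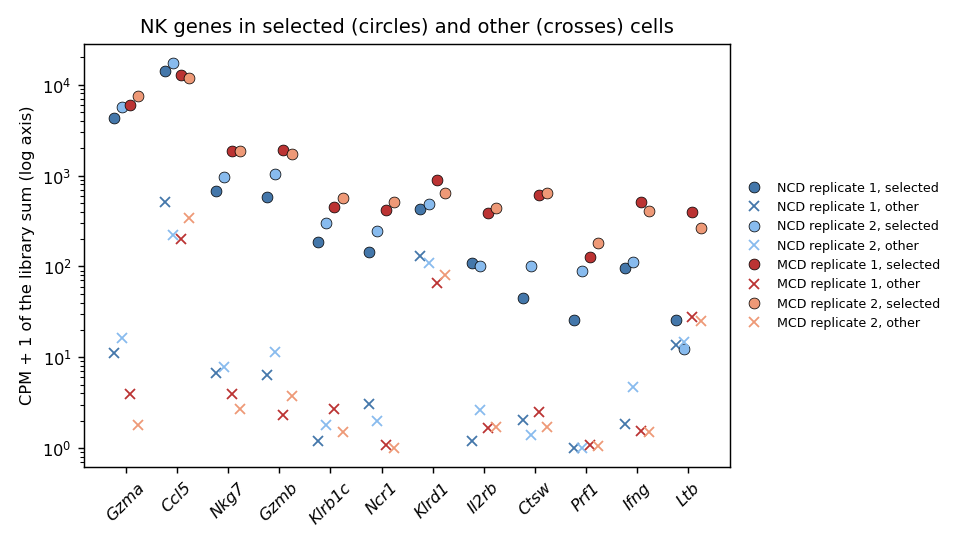
Level of 12 NK genes in the summed selected cells (circles) and other cells (crosses) of each library, as CPM + 1 on a log axis. Selected cells lie above other cells in every library for each gene but Ltb, which in NCD replicate 2 is at 11.5 CPM in selected and 13.8 CPM in other cells.

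The name covers mixed lymphocytes. Markers of circulating NK cells summed to 3287, 3110, 4657 and 4092 CPM, and those of ILC1 to 475, 386, 1059 and 987 CPM, against 497, 475, 732 and 720 CPM in other cells. For group 2 cells, which make interleukin-5 and interleukin-13, the sums were 316, 348, 363 and 388 CPM with 5 to 6 of the 10 genes at 0 in a library, against 201, 287, 159 and 152 CPM in other cells. For group 3 cells, which make interleukin-22, 5 of the 6 genes were at 0 in every library, and the sums were 54.4, 115, 15.6 and 14.7 CPM. The NK-defining genes thus marked the selected cells in every library, whereas the ILC1 list did not exceed the other cells in NCD, and no innate lymphoid group was separated from NK cells here.

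Some selected cells carried T cell receptor complex genes. At least 2 of Cd3d, Cd3e and Cd3g were present in 3 of 55, 4 of 105, 9 of 39 and 6 of 31 cells. These Cd3 cells were counted without thinning, and the MCD cells were read more deeply, so such cells can be missed more often in NCD. The alternative without the Cd3 cells has the same limit. In NCD replicates 1 and 2 the few Cd3 cells had 3851 and 1734 CPM of Gzma, against 4572 and 6737 CPM in cells with no Cd3 UMI. In MCD replicate 1 they had 53.1 CPM of Gzma against 7729, and 17.7 CPM of Ncr1 against 542. In MCD replicate 2 the same pairs were 14.7 against 11262 CPM for Gzma and 0 against 761 CPM for Ncr1. Conversely, Cd8b1, a chain of the cytotoxic T cell coreceptor CD8, was at 319 and 176 CPM in the Cd3 cells of the MCD libraries and at 0 in cells with no Cd3 UMI. The T cell markers counted in all libraries, 10 of the 13 listed, summed to 222, 191, 934 and 786 CPM over all selected cells, against 10.4 to 15.5 CPM in other cells. They were thus higher in both MCD libraries, and genes named below whose call ends without the Cd3 cells are given with that value.

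Myeloid and endothelial transcripts moved the other way. Monocyte markers in selected cells summed to 4256, 3175, 1469 and 2466 CPM, macrophage markers to 1122, 1307, 238 and 590 CPM, and endothelial markers to 1453, 2801, 320 and 830 CPM, each higher in both NCD libraries. The monocyte list holds Lyz2, which the rule capped and which alone was at 1923, 1643, 227 and 997 CPM. The diet difference of that list therefore rests in part on a rule gene and is a description. In other cells the endothelial sums were 1210, 2053, 239 and 505 CPM, below the selected cells in every library. Monocyte sums there were 7555, 7851, 20833 and 23915 CPM and macrophage sums 1407, 1566, 3347 and 3998 CPM. Both lay above the selected cells and were higher in both MCD libraries. Dendritic cell markers in selected cells were at 5150, 2736, 316 and 3115 CPM, with overlapping diets. The B cell markers counted in all libraries, 5 of the 7 listed, stayed at or under 11.7 CPM, neutrophil markers at or under 30.6 CPM and erythroid markers at or under 4.91 CPM. The part of these transcripts in the diet differences below was not tested beyond the values given without the large cells.

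**Figure D3:**
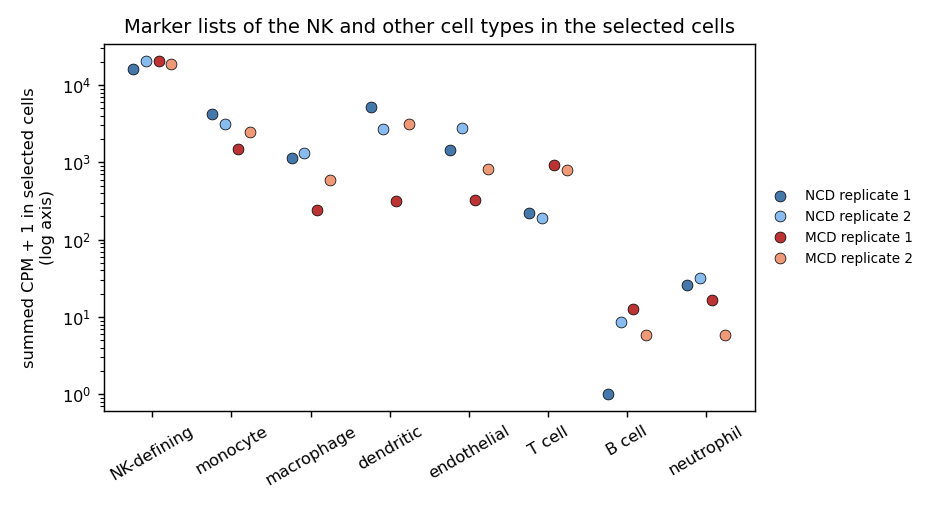
Summed level of 8 marker lists in the selected cells of each library, as CPM + 1 on a log axis. NK-defining genes lie between 16133 and 20650 CPM in all libraries, T cell markers are higher in both MCD libraries, and monocyte, macrophage and endothelial markers are higher in both NCD libraries. The monocyte list includes Lyz2, which the rule capped.

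The rule genes themselves, given as a description, showed how the NK programme stood in each library. Gzma, a granule protease, was at 4271, 5647, 5934 and 7497 CPM, and Nkg7, a granule membrane protein, at 677, 963, 1860 and 1867 CPM. The chemokine Xcl1, which draws cross-presenting dendritic cells, was at 405, 543, 1367 and 928 CPM, with 45.1% of its UMIs in NCD replicate 1 from 1 cell. Nkg7 and Xcl1 were thus higher in both MCD libraries, by log2 0.99 and 1.09, but by only 0.20 and 0.48 without the large cells. The kinase Txk was nearly level, at 648, 684, 734 and 688 CPM. Klre1, which pairs with other lectin receptors, overlapped between diets at 316, 501, 629 and 413 CPM. Most Ly49 receptors read MHC class I. Klra8, the gene of Ly49H, which binds a cytomegalovirus protein, was at 272, 489, 535 and 506 CPM, Klra4 at 326, 317, 547 and 359 CPM and Klra7 at 262, 329, 375 and 305 CPM. Reads of Ly49 genes can be shared among near-identical copies, so their separate values are uncertain.

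Across all genes, the sums of the selected cells were compared between diets with edgeR's quasi-likelihood test and Benjamini-Hochberg adjustment. Of 3833 genes tested, 733 passed an adjusted p of 0.05, which is 19.1%; 317 were higher in MCD (8.27%) and 416 lower (10.9%), and the median log2 fold change was -0.0014. Scaled to library totals in place of TMM factors, the median moved by 0.21 on the log2 scale and the split became 484 higher and 300 lower. Without the large cells 615 of 2466 genes passed (24.9%), of which 419 were among the 733. DESeq2 called 234 (6.1% of its tests). In counts simulated for the diet comparison of 3671 genes in selected cells, 16.9% of changes of log2 1 and 90.5% of changes of log2 2 were recovered. Of the simulated calls 6.19% were false. The simulation gave all genes the same dispersion and had no large cells, so it did not cover the spread such cells add. In the other cells of the same libraries 6133 of 12657 genes passed (48.5%), so a large share of all genes differed between these libraries in the myeloid cells as well.

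**Figure D4:**
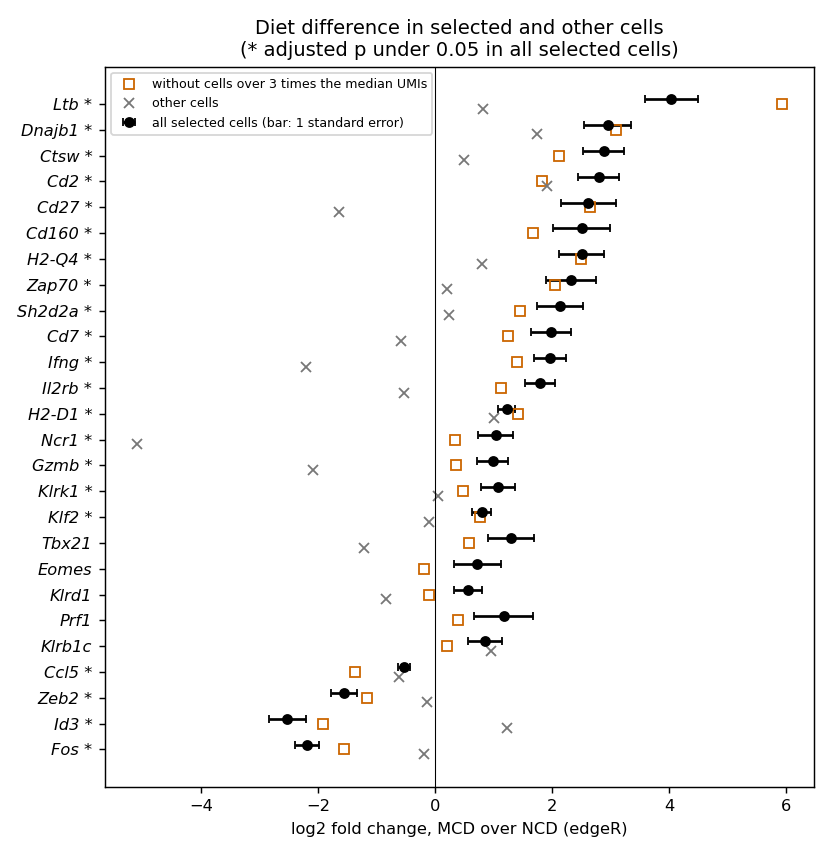
Log2 fold change of MCD over NCD for 26 genes in all selected cells (black, bar of 1 standard error), without cells over 3 times the median UMIs (orange squares) and in the other cells (grey crosses, where tested). Ltb, Ctsw, Cd2, Ifng and Il2rb are higher in MCD with and without the large cells, and Ncr1, Gzmb and Klrk1 move toward 0 without them.

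The NK-defining genes were mostly higher in MCD: of 15 tested, 9 rose and 1 fell (median log2 fold change 1.17, against -0.0014 over all genes tested). Ctsw, a cathepsin of cytotoxic lymphocytes, was at 44.5, 99.3, 606 and 644 CPM in NCD replicates 1 and 2 and MCD replicates 1 and 2. Both MCD libraries lay more than 6-fold above both NCD libraries, and Ctsw rose by log2 2.88 ± 0.34 (SE, adjusted p = 0.00244), with 2.11 without the large cells (adjusted p = 8.69e-05). At 1000 UMIs per cell, Ctsw was found in 8.0%, 7.5%, 33.3% and 50% of the selected cells, and in at most 0.219% of other cells. Il2rb, the receptor chain for interleukin-15, was at 109, 99.3, 383 and 442 CPM; the diets did not overlap, and it rose by 1.80 ± 0.26 (adjusted p = 0.00542). Il2rb was 1.12 higher without the large cells (adjusted p = 0.0161), and without the Cd3 cells 1.69 (adjusted p = 0.00646), but with each cell thinned to 1000 UMIs it was at 0.40 (adjusted p = 0.578). Cd7, a lymphocyte surface protein, rose by 1.98 ± 0.35 (adjusted p = 0.00963) and the adaptor Sh2d2a by 2.14 ± 0.40 (adjusted p = 0.0117), and both passed without the large cells.

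For the defining genes Ncr1 and Gzmb the call ended without the large cells. Ncr1, at the levels given above, rose by 1.04 ± 0.30 (adjusted p = 0.0462), but was at 0.34 without the large cells (adjusted p = 0.402) and had an adjusted p of 0.228 with DESeq2. Gzmb, the granule protease granzyme B, was at 573, 1036, 1906 and 1739 CPM and rose by 0.99 ± 0.26 (adjusted p = 0.0371); without the large cells it was at 0.35 (adjusted p = 0.152). At 1000 UMIs per cell, Gzmb was found in 56.0%, 60.0%, 53.8% and 50% of selected cells, slightly lower in both MCD libraries, unlike its CPM, so no order is read from it. Ccl5, a chemokine stored by cytotoxic lymphocytes, was the 1 that fell, and its call held without the large cells. It was at 13983, 17194, 12821 and 11737 CPM, a log2 change of -0.53 ± 0.10 (adjusted p = 0.0111). Without the large cells the change was -1.37 (adjusted p = 5.41e-09). Without the Cd3 cells its adjusted p was 0.0986, and it did not pass with DESeq2 or with sums scaled to library totals either. Of the 15 defining genes, 5 rose and 1 fell without the large cells. Tbx21 (1.31 ± 0.39, adjusted p = 0.0524), Prf1 (perforin, 1.17 ± 0.50, adjusted p = 0.134), Klrb1c (0.86 ± 0.29, adjusted p = 0.0732), Eomes (0.73, adjusted p = 0.246) and Klrd1 (0.56, adjusted p = 0.134) did not pass.

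The DNA just upstream of 4 genes that passed the diet test is shown for context, because NK and innate lymphoid genes are read by T-box factors (Eomes, T-bet), RUNX, ETS and AP-1 proteins. Each line holds the 250 bases before the RefSeq start (assembly GRCm38.p6), 5′ to 3′ on the gene's strand. Capitals mark a match on either strand to TCACAC (T-box), TGTGGT (RUNX), AGGAAG (ETS) or TGANTCA (AP-1).
Ncr1, chr7:4337465-4337714, plus strand, upstream of the first of 2 listed starts: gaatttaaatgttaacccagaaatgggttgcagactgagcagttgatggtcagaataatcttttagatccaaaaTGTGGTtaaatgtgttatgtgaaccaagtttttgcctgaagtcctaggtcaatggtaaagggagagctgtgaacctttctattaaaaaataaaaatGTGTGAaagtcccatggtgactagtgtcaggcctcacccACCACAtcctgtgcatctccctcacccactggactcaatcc
Gzmb, chr14:56262335-56262584, minus strand: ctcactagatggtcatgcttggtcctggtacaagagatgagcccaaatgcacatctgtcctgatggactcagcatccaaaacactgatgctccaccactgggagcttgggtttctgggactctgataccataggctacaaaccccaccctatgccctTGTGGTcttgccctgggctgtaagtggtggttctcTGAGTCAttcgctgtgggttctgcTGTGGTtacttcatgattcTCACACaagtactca
Ifng, chr10:118440796-118441045, plus strand: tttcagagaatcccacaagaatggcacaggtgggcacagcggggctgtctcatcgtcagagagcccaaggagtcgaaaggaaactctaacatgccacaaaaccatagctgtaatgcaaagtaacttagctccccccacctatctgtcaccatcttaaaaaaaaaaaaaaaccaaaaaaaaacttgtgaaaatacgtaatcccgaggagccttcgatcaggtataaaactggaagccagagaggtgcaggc
Il18rap, chr1:40515112-40515361, plus strand: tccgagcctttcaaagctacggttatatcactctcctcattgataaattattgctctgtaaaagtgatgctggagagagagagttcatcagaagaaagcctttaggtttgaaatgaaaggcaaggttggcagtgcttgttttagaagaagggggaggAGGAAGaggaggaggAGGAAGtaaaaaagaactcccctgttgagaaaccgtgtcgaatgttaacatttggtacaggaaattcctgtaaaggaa
The Ncr1 window held 1 T-box and 2 RUNX matches, the Gzmb window 1 T-box, 2 RUNX and 1 AP-1 match, the Il18rap window 2 ETS matches, and the Ifng window none of these letters. Among all 32536 windows of this length, 12.1% held a T-box match, 14.0% a RUNX match, 29.6% an ETS match and 6.73% an AP-1 match, so single matches are common. None of the windows overlapped its own gene as annotated in GENCODE M21, in which Ncr1 lies at chr7:4337724-4345164, Gzmb at chr14:56258838-56262260 and Ifng at chr10:118441046-118445892, each protein coding. Overlap with other annotated genes was not checked.

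Among activating receptors, 7 of 16 tested genes rose and 0 fell (median 0.95), against 8.27% and 10.9% of all genes tested. Cd2, an adhesion and costimulatory receptor, was at 34.6, 34.4, 309 and 241 CPM, with both MCD libraries above both NCD libraries, and rose by 2.80 ± 0.35 (adjusted p = 0.00325). Cd27, a receptor of the TNF family that marks less mature NK cells, was at 9.89, 15.3, 102 and 83.5 CPM and rose by 2.62 ± 0.47 (adjusted p = 0.0107); without the Cd3 cells it was 1.97 higher (adjusted p = 0.0264). Cd160, a receptor for MHC class I and HVEM, was at 9.89, 26.7, 109 and 147 CPM and rose by 2.51 ± 0.49 (adjusted p = 0.0134). Klrk1 encodes NKG2D, the receptor of stress-induced ligands, and was at 282, 409, 1012 and 649 CPM; it rose by 1.07 ± 0.29 (adjusted p = 0.0398), but was at 0.49 without the large cells (adjusted p = 0.097). Cd226 (2.05, adjusted p = 0.0487) and Klrb1a (1.19, adjusted p = 0.0448) rose as well, but Klrb1a was at 0.59 without the large cells (adjusted p = 0.295). With the large cells left out 3 receptors rose, with a list median of 0.27, and in other cells 6 rose and 3 fell. The adaptors that carry receptor signals had 2 of 7 that rose: Hcst, which encodes DAP10, the partner of NKG2D, by 1.08 ± 0.22 (adjusted p = 0.0154), and Lat by 2.77 (adjusted p = 0.0347). Tyrobp, which encodes DAP12, was level at 1285, 1460, 1684 and 1749 CPM (0.13, adjusted p = 0.572), and without the large cells Hcst was at 0.26 (adjusted p = 0.398) and Lat at 2.20 (adjusted p = 0.0543).

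Of 8 inhibitory receptors tested 1 rose and 1 fell (median 0.42), close to the share of all genes that did. Klrb1b, an inhibitory lectin receptor, was at 74.1, 87.9, 281 and 201 CPM and rose by 1.38 (adjusted p = 0.0252), but was at 0.77 without the large cells (adjusted p = 0.0952), where 0 of 7 receptors rose and 1 fell. Lair1, a collagen receptor that is also expressed by myeloid cells, was at 109, 134, 35.2 and 24.6 CPM and fell by 2.17 on the log2 scale (SE 0.40, adjusted p = 0.0111). Klrc1, the gene of NKG2A (0.98, adjusted p = 0.109), and Klrg1 (0.79, adjusted p = 0.130) did not pass. Of 4 tested Ly49 genes outside the rule, Klra1 (1.91, adjusted p = 0.0423) and Klra3 (1.05, adjusted p = 0.0495) rose and Klra2 fell. Klra2, a Ly49 gene that was present in the other cells at 160 to 181 CPM, was at 128, 68.8, 15.6 and 19.6 CPM in selected cells. Klra2 changed by -2.62 (adjusted p = 0.0138). Without the large cells Klra1 was at 1.33 (adjusted p = 0.127; 0.0806 without the Cd3 cells) and Klra3 at 0.24 (adjusted p = 0.664), and 1 cell held 76.9% of the Klra1 UMIs of MCD replicate 2.

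Of 14 cytotoxic granule genes tested, 3 rose and 1 fell (median 0.49), against 8.27% and 10.9% of all genes tested. Beside Gzmb and Ctsw, the lysosomal protease Ctsd rose by 1.41 ± 0.22 (adjusted p = 0.00642), from 232 and 256 CPM in NCD to 699 and 781 CPM in MCD. The lysosomal membrane gene Lamp2 was at 257, 420, 105 and 113 CPM, and changed by -1.83 ± 0.32 (adjusted p = 0.0103). Gzmc, another granzyme, was at 29.7, 22.9, 46.9 and 491 CPM, nearly all from 1 cell in MCD replicate 2, and did not pass. With the large cells left out, 2 granule genes rose and 1 fell.

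Among secreted factors, 2 of 9 rose and 1, Ccl5, fell (median 0.47), against 8.27% and 10.9% of all genes tested. Ifng, the gene of interferon gamma, was at 93.9, 111, 504 and 408 CPM, with 41.9% of its UMIs in MCD replicate 1 from 1 cell. Both MCD libraries were above both NCD libraries, and it rose by 1.96 ± 0.27 (adjusted p = 0.00475), by 1.39 without the large cells (adjusted p = 0.00255) and by 2.23 without the Cd3 cells (adjusted p = 0.00163). At 1000 UMIs per cell, Ifng was found in 8.0%, 13.8%, 28.2% and 23.3% of selected cells. Ltb, lymphotoxin beta, which shapes lymphoid tissue, had 5, 3, 102 and 54 UMIs, or 24.7, 11.5, 398 and 265 CPM. It rose by 4.04 ± 0.46 (adjusted p = 0.00195), by 5.93 without the large cells (adjusted p = 3.37e-06) and by 3.78 without the Cd3 cells (adjusted p = 0.00203). At 1000 UMIs per cell, Ltb was found in 0%, 1.25%, 25.6% and 23.3% of selected cells and in 1.03% to 4.05% of other cells, so in NCD it was at the level of the other cells. Ltb was also in cells with no Cd3 UMI, at 248 and 229 CPM in the MCD libraries against 23.1 and 0 CPM in the NCD libraries. The chemokines Ccl3 (1147, 1070, 1793 and 1695 CPM, adjusted p = 0.0653) and Ccl4 (3238, 2243, 3738 and 2795 CPM, adjusted p = 0.838) did not pass, and Ccl4 overlapped between diets.

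Cytokine receptors had 2 of 15 genes that rose and 1 that fell (median 0.59), near the 8.27% and 10.9% of all genes tested. Il18rap, the accessory chain of the interleukin-18 receptor, was at 69.2, 172, 449 and 344 CPM and rose with Il2rb, by 1.49 ± 0.39 (adjusted p = 0.0347); DESeq2 gave an adjusted p of 0.0812. Its partner Il18r1 was at 74.1, 91.7, 227 and 167 CPM but did not pass (1.05, adjusted p = 0.0574). Il6st encodes gp130, the shared chain of the interleukin-6 family, and is broadly expressed outside lymphocytes; it was at 257, 313, 74.2 and 39.3 CPM and changed by -2.48 ± 0.36 (adjusted p = 0.00542). Of 24 signalling genes, 6 rose and 1 fell (median 0.35). The proximal kinases of lymphocyte receptors Lck (49.4, 72.6, 277 and 211 CPM) and Zap70 (14.8, 19.1, 97.7 and 103 CPM) rose by 1.79 ± 0.34 and 2.32 ± 0.43 (adjusted p = 0.013 and 0.0111). Vav1 (1.70, adjusted p = 0.0407) and Stat4 (1.42, adjusted p = 0.0323), which carries the interleukin-12 signal, also rose. Without the large cells their adjusted p was 0.0776 and 0.107, that of Vav1 without the Cd3 cells was 0.0542, and 3 signalling genes rose and 1 fell. Lyn, a kinase of myeloid and B cells, changed by -2.13 ± 0.31 (adjusted p = 0.00542). Lck and Zap70 serve T cells too, and the T cell markers were higher in the same libraries; without the Cd3 cells they were 2.03 and 1.92 higher (adjusted p = 0.0139 and 0.02).

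Of 24 transcription factors, 6 rose and 3 fell (median 0.75), against 8.27% and 10.9% of all genes tested. Klf2, which controls lymphocyte trafficking, was at 944, 833, 1809 and 1700 CPM and rose by 0.80 ± 0.16 (adjusted p = 0.0156). Gata3 (1.62), Tcf7 (2.57), Lef1 (2.03) and Hopx (1.17) also rose; Tcf7 and Lef1 mark less mature NK cells and T cells. Without the large cells the adjusted p of Gata3 was 0.117 and that of Lef1 0.195, and Tcf7 was too low to test. Without the Cd3 cells Hopx was at 0.90 (adjusted p = 0.087), Tcf7 at 2.39 (adjusted p = 0.018) and Lef1 too low to test. In the list, 3 genes rose and 3 fell without the large cells. Zeb2, a factor of mature NK cells and of myeloid cells, was at 662, 638, 230 and 275 CPM, with 41.0% of its UMIs in NCD replicate 1 from 1 cell. Zeb2 changed by -1.55 ± 0.22 (adjusted p = 0.00532), and by -1.16 without the large cells (adjusted p = 0.00384). Id3 was at 311, 336, 50.8 and 78.6 CPM in selected cells and changed by -2.53 ± 0.32 (adjusted p = 0.00318), whereas in other cells it was at 425, 391, 1008 and 1082 CPM, higher in both MCD libraries.

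**Figure D5:**
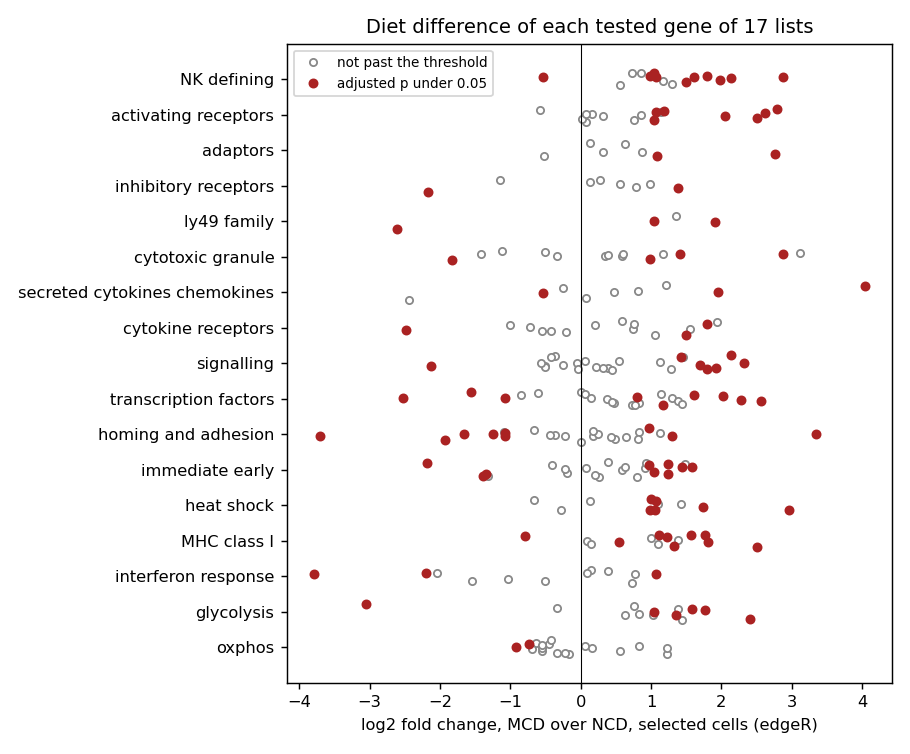
Log2 fold change of MCD over NCD in the selected cells for each tested gene of the lists, 1 row per list; filled points passed an adjusted p of 0.05 in edgeR's quasi-likelihood test. NK-defining genes and MHC class I genes lie mainly to the right of 0, and homing genes on both sides.

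Homing and adhesion genes had 3 of 24 that rose and 6 that fell (median 0.09), against 8.27% and 10.9% of all genes tested. With sums scaled to library totals 5 rose and 3 fell, and without the large cells 3 rose and 4 fell, so the balance depends on the scaling. Cxcr6, the chemokine receptor that holds lymphocytes in liver sinusoids, had 1, 3, 28 and 20 UMIs and rose by 3.34 ± 0.51 (adjusted p = 0.00625). Of its 7 positive cells in each MCD library, 6 and 5 carried Cd3 genes, and without the Cd3 cells the gene was too low to test. Icam1 and Selplg, both adhesion molecules, rose by 1.30 and 0.97. S1pr1, the exit receptor for sphingosine phosphate, was at 54.4, 103, 0 and 14.7 CPM, an NCD over MCD ratio of 12.5 (95% counting interval 3.98 to 63.5). Cx3cr1, a chemokine receptor of mature NK cells and monocytes, was at 163, 164, 62.5 and 54.0 CPM and changed by -1.66 (adjusted p = 0.0132). The integrin Itgal was at 771, 844, 367 and 408 CPM and fell by 1.25 on the log2 scale (SE 0.20, adjusted p = 0.00771), with a change of -1.05 in the other cells.

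MHC class I genes, whose products are the ligands of Ly49 and NKG2A receptors, had 8 of 14 that rose and 1 that fell (median 1.17). The shares over all genes tested were 8.27% and 10.9%. The classical H2-D1 was at 1325, 1154, 3442 and 3139 CPM and rose by 1.22 ± 0.14 (adjusted p = 0.00195). The nonclassical H2-Q4 and H2-Q7 rose by 2.50 ± 0.39 and 1.56 ± 0.26 (adjusted p = 0.00641 and 0.00771), and the immunoproteasome subunit Psmb8 by 1.77 (adjusted p = 0.00542). B2m, the shared light chain, was at 4869, 4123, 2863 and 3046 CPM and fell by 0.79 on the log2 scale (SE 0.12, adjusted p = 0.00542). With DESeq2 the B2m fall did not pass (adjusted p = 0.166). The edgeR calls of heavy and light chains thus differed in direction. The other cells had 8 that rose and 1 that fell, and without the large cells 10 of 13 rose and 1 fell. Near-identical H2 genes can share reads, so their separate values are uncertain.

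Heat shock genes had 6 of 11 that rose and 0 that fell (median 1.05). The cochaperone Dnajb1 was at 34.6, 68.8, 359 and 594 CPM and rose by 2.96 ± 0.40 (adjusted p = 0.00432); the chaperones Hspa8, Hspa1a and Hsp90aa1 also rose. Immediate early genes, which are read within minutes of stimulation, had 6 of 23 that rose and 3 that fell (median 0.59). Fos was at 2061, 1677, 406 and 531 CPM and changed by -2.19 ± 0.21 (adjusted p = 0.000891), as did Dusp1 (-1.34) and Zfp36 (-1.39), while Ier2, Jund, Dusp2 and Gadd45b rose. The list thus had no single direction. Without the large cells 12 of 22 rose and 4 fell (median 0.85), with library totals 10 rose and 3 fell, and in other cells 16 of 24 rose and 1 fell. Among 13 glycolysis genes 5 rose and 1 fell (median 1.04), Eno1 by 2.41 (adjusted p = 0.00516), and the other cells had 13 that rose and 1 that fell. Of 12 interferon response genes 1 rose and 2 fell (median -0.20), and of 18 oxidative phosphorylation genes 0 rose and 2 fell (median -0.38). The last 2 lists lay near the shares over all genes tested, of which 8.27% rose and 10.9% fell.

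Genes of methionine and polyamine metabolism, listed because the diet lacks methionine, had 0 of 10 that rose and 2 that fell (median 0.20). Over all genes tested 8.27% rose and 10.9% fell. Without the large cells 2 of 9 rose and 2 fell, and with library totals 2 rose and 2 fell. In other cells 7 of 18 rose and 3 fell, so the list had no single direction. Amd1, which makes the donor of polyamine synthesis from S-adenosylmethionine, was at 242, 283, 82.0 and 108 CPM and changed by -1.66 (adjusted p = 0.0106), with -2.10 in the other cells. Sat1, which breaks polyamines down, was at 1246, 1009, 473 and 516 CPM and changed by -1.38 (adjusted p = 0.00542). Mat2a, the S-adenosylmethionine synthase of non-liver cells, was at -0.35 (adjusted p = 0.401). Of 6 amino acid stress genes 1 fell, Cebpb by 1.64 on the log2 scale.

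The largest changes in either direction named other cells as well as NK cells. Among the 12 largest increases with at least 10 UMIs in each MCD library, Cd8b1 had 1, 0, 18 and 12 UMIs, an MCD over NCD ratio of 30.3 (95% counting interval 5.04 to 1236), and Zgpat 0, 1, 12 and 11 UMIs with a ratio of 23.2 (3.77 to 957). The Cd8b1 UMIs of MCD replicates 1 and 2 lay in 3 and 2 cells, with 61.1% and 75% from 1 cell. The counting interval does not cover this spread between cells. With DESeq2 neither gene passed (adjusted p = 0.0751 for Cd8b1 and 0.133 for Zgpat). Ltb and Cxcr6, described above, were among them. Nfkb2, a subunit of the noncanonical NF-kB pathway, had a ratio of 12.8 (4.06 to 64.8), and the chromatin remodeler Smarca4 of 13.6 (3.43 to 118). Smarca4 did not pass with DESeq2 (adjusted p = 0.124). Among the 12 largest decreases, Fabp4, a fatty acid binding protein of endothelial cells and macrophages, was at 301, 531, 3.91 and 14.7 CPM, an NCD over MCD ratio of 49.5 (19.0 to 184). Fcgr4, an antibody receptor of myeloid cells, had a ratio of 50.5 (8.67 to 2034), and the tight junction gene Tjp1 of 42.6 (7.25 to 1721). The chemokine Cxcl9, made by myeloid and endothelial cells, had a ratio of 24.4 (10.2 to 76.4), with 48.0% and 42.9% of its UMIs in NCD replicates 1 and 2 from 1 cell. The integrin Itga9 had 10, 12, 0 and 0 UMIs, at least 7.26-fold lower in MCD taking 3 counts over both MCD libraries as its floor. Without the large cells Nfkb2, Fabp4 and Tjp1 passed again, whereas Cd8b1, Zgpat, Smarca4, Fcgr4, Cxcl9 and Itga9 were too low to test. The endothelial, macrophage and monocyte marker sums, the last including the rule gene Lyz2, were higher in the same NCD libraries.

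The levels of genes that passed were set beside those in other cells, as a description. The genes were called on these same sums, which raises the ratio in the diet where they are higher. The ratio was not counted over all genes tested, so the counts do not show which cells a gene belongs to. Of all 12657 genes tested in the other cells, 25.8% rose and 22.6% fell. Of 315 genes that rose and were not rule genes, 265 were higher in selected than in other cells in both MCD libraries, and 218 also rose in the other cells. Of 269 that could be tested without the large cells, 194 passed again. Of 416 that fell, 150 were above and 156 below the other cells in both NCD libraries, only 2 of them by over 2 times above, and 300 also fell in the other cells. Of 258 that could be tested without the large cells, 225 passed again.

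The diet difference was then compared between selected and other cells with a class-by-diet term. It passed for 562 of 10787 genes (5.21%), 120 with a more positive difference in selected cells (1.11%) and 442 with a more negative one (4.1%). In counts simulated for this term, only 6.32% of changes of log2 1 and 30.85% of changes of log2 2 were recovered. Of the NK-defining genes 7 passed, each more positive in selected cells, among them Gzmb (log2 difference 3.06, adjusted p = 7.96e-18), Ctsw (2.38, adjusted p = 0.0422) and Il2rb (2.29, adjusted p = 0.0392). The last pair did not hold: without the large cells the adjusted p was 0.467 for Ctsw and 0.44 for Il2rb, and with DESeq2 it was 0.0612 and 0.0956. For Il2rb it was also 0.0606 with the replicate block and 0.087 without the Cd3 cells. Ifng (4.09 ± 0.58, adjusted p = 3.12e-10) and Ltb (3.19, adjusted p = 1.32e-07) also passed, as did H2-Q4 (1.62, adjusted p = 0.000209) and H2-Q7 (1.54, adjusted p = 1.33e-06). Id3 (-3.82, adjusted p = 3.17e-25), Fos (-2.04, adjusted p = 7.14e-11) and Zeb2 (-1.48, adjusted p = 1.66e-05) differed the other way, Zeb2 with an adjusted p of 0.118 without the large cells. The other cells held little NK RNA. Gzma there was at 10.1, 15.4, 2.90 and 0.811 CPM and Gzmb at 5.46, 10.6, 1.31 and 2.76 CPM. Both were lower in both MCD libraries, where selected cells were also fewer. Gzmb changed by -2.08 in the other cells (edgeR adjusted p = 0.011). The part of these low levels in the term was not tested. With each cell thinned to 1000 UMIs, chosen after seeing the data, only 13 genes passed. Gzmb (adjusted p = 0.00729), Id3 (0.0301) and Zeb2 (0.0385) were among them, and Ctsw, Il2rb, Ifng, Ltb, Fos and the H2 genes were not. In that setting the edgeR diet change of Gzmb was 0.04 in selected cells (adjusted p = 0.88) and -2.52 in other cells (adjusted p = 0.0137).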

How the data were processed

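UMI counts per gene and cell were taken as deposited by the authors, from Cell Ranger with genome mm10 per the submitters' processing notes (version 3.0.2 per the file headers). MCD replicate 1 listed 27998 genes and the others 28692, so 694 unshared genes, at most 0.119% of a library's UMIs, were left out. A barcode needed 200 or more detected genes, with no more than 10% of its UMIs mitochondrial. No doublet caller was run; large cells were instead left out as an alternative. The members and gene lists were chosen with earlier results of these data known.

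Counts of the selected and of the other cells were summed per library, from libraries of 7428431 to 37772284 UMIs over all barcodes. Levels are CPM of these sums. Diets were compared with edgeR 4.0.16 (R 4.3.3, limma 3.58.1; filterByExpr, TMM, quasi-likelihood test), with Benjamini-Hochberg adjusted p-values and a threshold of 0.05. DESeq2 1.42.0 was an alternative. The alternative without T cell receptor genes used Cd3d, Cd3e and Cd3g, since the receptor chains are not among the shared genes. The procedure was tested on simulated data. Named genes were the rule genes, the members of the gene lists, the 12 largest changes each way with at least 10 UMIs in each library of the higher diet, the 8 largest each way of the class-by-diet term, and the 15 genes highest against other cells. Intervals and floors (3 counts) cover counting error only. Other work used Python 3.11.15, numpy 2.4.6, scipy 1.17.1, pandas 2.3.3 and matplotlib 3.10.9. Promoter sequences are from RefSeq (GRCm38.p6).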

Additional observations from a re-analysis of the deposited data

Results flagged for a closer look

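The diet difference in the selected cells differed from that in the other cells for 562 genes, by the class-by-diet term of edgeR's quasi-likelihood fit (2 libraries per diet, adjusted p under 0.05). The largest more positive differences in selected cells, on the log2 scale, were Ncr1 (5.93), Cd27 (4.30), Setbp1 (4.10), Ifng (4.09), Sytl3 (3.72), Klra9 (3.70), Il18r1 (3.60) and Dapk2 (3.59). The largest more negative were Tnip3 (-6.29), Tns3 (-5.11), Asph (-4.84), Fcgr4 (-4.63), Rnase6 (-4.61), Msr1 (-4.57), Mpeg1 (-4.47) and Chil3 (-4.32). None of these 16 passed with each cell thinned to 1000 UMIs, and Setbp1, Tnip3, Tns3, Rnase6 and Msr1 did not pass without the large cells. The fitted value of Ncr1 rests on few UMIs in the other cells (2.10, 1.02, 0.0936 and 0 CPM).

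Genes that were not counted in MCD replicate 1 held T cell receptor and Ighm transcripts in the selected cells of MCD replicate 2, above the NCD libraries. Trac was at 147 CPM (34.6 and 22.9 in NCD replicates 1 and 2), Trbc1 at 432 (93.9 and 99.3) and Trbc2 at 305 (54.4 and 61.1). Trdc was at 29.5 CPM (14.8 and 11.5), Tcrg-C1 at 24.6 (0 and 0), Tcrg-C4 at 29.5 (9.89 and 3.82) and Ighm at 147 (49.4 and 26.7). For Ighm, 45.2% of selected and 41.0% of other cells of MCD replicate 2 held a UMI. Igkc went the other way, at 0 CPM in MCD replicate 2 against 44.5 and 7.64 CPM in NCD.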

How the results depend on the processing

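The 733 genes past the threshold in the selected cells became 234 with DESeq2, 1178 with no filter on low counts, 461 with a Lyz2 limit of 0.3%, 1249 with a mitochondrial limit of 20% and 235 with each cell thinned to 1000 UMIs. Leaving out 1 library gave 553 to 934 (767 without NCD replicate 1, 676 without NCD replicate 2, 553 without MCD replicate 1, 934 without MCD replicate 2). In other cells the 6133 became 3347 with thinned cells, and 4313 to 5144 without 1 library. The 562 of the class-by-diet term became 203 with DESeq2, 366 with a Lyz2 limit of 0.3%, 243 with the rule applied to thinned cells, 360 with thinned sums, 153 without the large cells, 13 with thinned cells, and 266, 392, 244 and 590 without NCD replicate 1, NCD replicate 2, MCD replicate 1 and MCD replicate 2. Ccl4 turned from 0.07 to -0.67 without the large cells and Cd44 from -1.08 to 0.63 with thinned cells; the cause was not tested. Among 330 named genes, whether or not they passed, 75 calls ended with DESeq2, 22 without the large cells, 8 without the Cd3 cells, 29 with the stricter Lyz2 limit, and 27, 17, 34 and 13 without NCD replicate 1, NCD replicate 2, MCD replicate 1 and MCD replicate 2. Ctsw, Ltb, Ifng, Cd2, Cd7, Cd160, Sh2d2a, Ctsd, H2-D1, H2-Q4, H2-Q7, Zeb2, Id3 and Fos kept their call in every alternative that could test them. Klf2, Il18rap, Selplg, Hsp90aa1, Dusp1 and Cebpb did not pass with thinned cells. Not every call lost with DESeq2 was marked beside its gene above. Gzmb, Cd27, Zap70, Tcf7, Icam1, Cx3cr1, Klf2 and Cd226 were among those lost. The MCD over NCD ratio of the selected share was 0.196 to 0.364 over the alternatives. Deviations of same-numbered libraries from their diet means correlated at -0.022 over 3833 genes in the selected cells. The other cells were not checked this way, and a single correlation cannot exclude a pairing or a shared preparation. With the replicate block 740 genes passed in the selected cells, 6972 in other cells and 475 for the term. The shallow NCD cells limit what low genes can show.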
